A study of Homo sapiens with 12 samples.

Results

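The subject is FLT3 and 8 other receptor genes through which myeloid cells receive growth factor and cytokine signals. The members are the rows of the deposited gene table named FLT3, KIT, CSF1R, CSF2RA, CSF2RB, CSF3R, IL3RA, IL6R and IL6ST, 9 of the 34626 genes listed. They were measured by RNA sequencing of poly(A) RNA in 12 libraries from MV4-11 and THP-1, acute myeloid leukaemia cell lines grown from patients. Each line gave 3 libraries from cells with a control short hairpin RNA (shControl) and 3 from cells with a hairpin against CYTH4 (shCYTH4), the gene for cytohesin 4, an exchange factor for ARF GTPases. No untransduced cells and no second hairpin were analysed here, and the labels give neither the hairpin sequences nor the time after their introduction. Separate cultures behind the 3 libraries of a group are not mentioned in the labels, so each p-value reflects the spread among these libraries, which may be technical.

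FLT3, KIT and CSF1R are class III receptor tyrosine kinases: a ligand joins a pair of receptors, which then phosphorylate each other and recruit RAS, PI3K and STAT signalling. CSF2RA and IL3RA are the ligand-binding alpha chains for GM-CSF and interleukin-3, CSF2RB is the beta chain that both share, CSF3R binds G-CSF, and IL6R binds interleukin-6 and passes the signal to IL6ST (gp130); these chains have no kinase of their own and signal through bound JAK kinases to STAT proteins. MV4-11 is known for an internal tandem duplication of FLT3, which makes the kinase active without ligand, whereas THP-1 is not known to carry one. Gene-level values like those used here do not separate the duplicated from the normal allele.

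The targeted gene CYTH4 measured 20.9, 16.0 and 18.1 FPKM (fragments scaled to transcript length and to sequencing depth) in the MV4-11 shControl libraries and 15.5, 20.7 and 22.3 FPKM in the MV4-11 shCYTH4 libraries. In THP-1 it measured 25.7, 32.2 and 21.0 FPKM with shControl and 15.7, 15.0 and 15.7 FPKM with shCYTH4. CYTH4 transcript thus fell in THP-1 (log2 change -0.89, SE 0.19, edgeR adjusted p = 0.0338), and its MV4-11 groups overlapped (log2 change 0.0089, edgeR adjusted p = 0.988). The THP-1 call held in 14 of 20 alternatives; it was lost under the replicate block and without THP-1 shControl replicate 1 or 2, THP-1 shCYTH4 replicate 1 or 2 or MV4-11 shCYTH4 replicate 2, with edgeR adjusted p-values up to 0.147. Because of the MV4-11 result, the treated MV4-11 libraries are called by their label only. Depth was 71730093 to 77782719 estimated counts per library. FPKM was used as the authors gave it, without the library factors (TMM) of the test, which ran from 0.916 to 1.08. The library labelled THP-1 shCYTH4 replicate 3 correlated with its group mates at 0.971 and 0.970 on log2 CPM (counts scaled to library size), while those mates correlated at 0.989, and MV4-11 shCYTH4 replicate 1 stood apart in the same way at 0.977 and 0.975 against 0.989. Most markers matched the label of myeloid cells: the summed FPKM of 7 myeloid and monocytic markers, led by LYZ, was 1793 to 2013 in MV4-11 shControl, 1252 to 1342 in the MV4-11 libraries labelled shCYTH4, 537 to 617 in THP-1 shControl and 900 to 1016 in THP-1 shCYTH4. LYZ alone averaged 1707 FPKM in its highest group, so it weighs heavily in the sum. Of the 7 markers, 1 averaged under 1 FPKM in both MV4-11 groups, and 0 did in the THP-1 groups. The part of these marker levels in the results was not tested. The summed FPKM of 16 markers of T cells, B cells, erythroid cells, megakaryocytes, epithelium and fibroblasts was 4.31 to 7.25 per library.

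More of the receptor genes passed the test between the lines than between the hairpins. In the shControl libraries FLT3, IL3RA and CSF2RB were higher in MV4-11, and IL6R and CSF1R were higher in THP-1. These 5 of the 8 tested members were called, that is, had an adjusted p under 0.05 in edgeR's quasi-likelihood test over all 12350 genes tested. Of all genes tested 51.4% were called in this comparison, 24.6% as higher and 26.7% as lower in MV4-11, so 3 members called higher and 2 called lower are close to the background. With shCYTH4 no tested member was called in either line with all libraries in the fit. IL6ST was not among the genes tested, since it reached an FPKM of 1 in only 2 libraries, and KIT entered the test only through MV4-11, where it was higher. Among the 10867 tested genes that reached an FPKM of 1 in a library of each line, 46.1% were called between the controls, 24.2% higher and 21.9% lower in MV4-11, and the same 5 receptors were called among the 7 in this set.

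**Figure D1:**
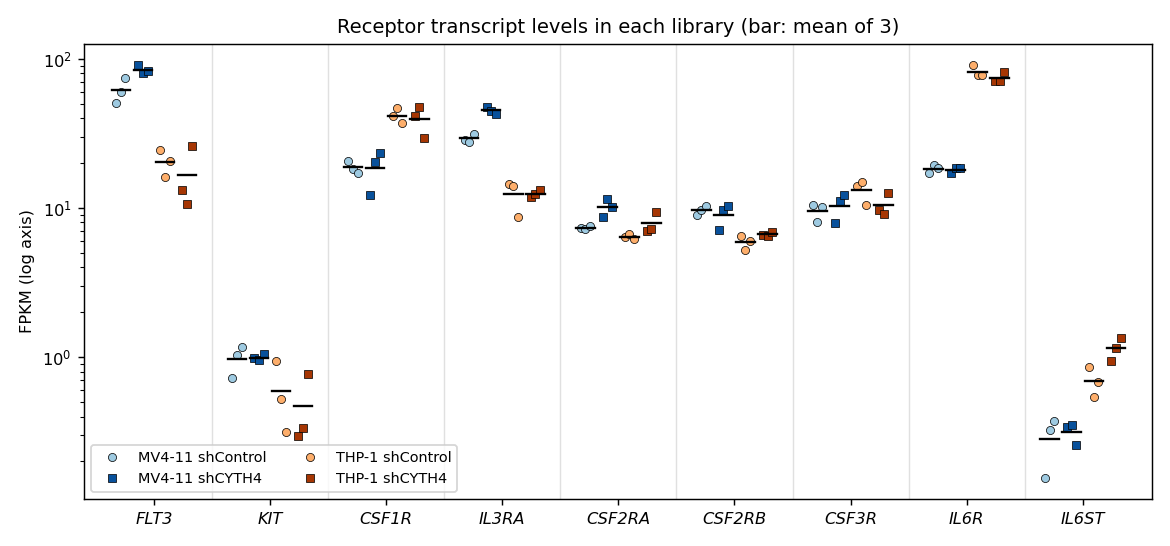
FPKM of the 9 receptor genes on a log axis, with 1 point per library, circles for shControl, squares for shCYTH4 and bars for the mean of 3 libraries. FLT3 and IL3RA sit higher in MV4-11 (blue), CSF1R, IL6R and IL6ST sit higher in THP-1 (orange), and hairpin groups of a line mostly lie side by side.

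The promoters of FLT3, IL3RA, CSF1R and IL6R, 4 of the 5 members called between the lines' controls, are shown to give the sequence context of genes that differed in both directions. RefSeq starts matched 8 of the 9 members. Each window is the 250 bases before the RefSeq start on GRCh38.p14, read 5′ to 3′ on the strand of the gene, with motif matches in capitals. The windows are chr13:28100577-28100826 on the minus strand for FLT3, chrX:1336535-1336784 on the plus strand for IL3RA, chr5:150086555-150086804 on the minus strand for CSF1R (the more downstream of 2 RefSeq starts) and chr1:154405093-154405342 on the plus strand for IL6R.
FLT3: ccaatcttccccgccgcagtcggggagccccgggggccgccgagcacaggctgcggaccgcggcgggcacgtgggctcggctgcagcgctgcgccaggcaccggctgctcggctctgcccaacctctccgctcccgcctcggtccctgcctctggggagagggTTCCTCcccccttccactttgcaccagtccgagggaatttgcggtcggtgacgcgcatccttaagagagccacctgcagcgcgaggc
IL3RA: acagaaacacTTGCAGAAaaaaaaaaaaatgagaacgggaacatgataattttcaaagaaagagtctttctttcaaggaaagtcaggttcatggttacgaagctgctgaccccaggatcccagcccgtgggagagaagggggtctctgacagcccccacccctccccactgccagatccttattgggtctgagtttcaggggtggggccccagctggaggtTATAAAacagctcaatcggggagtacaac
CSF1R: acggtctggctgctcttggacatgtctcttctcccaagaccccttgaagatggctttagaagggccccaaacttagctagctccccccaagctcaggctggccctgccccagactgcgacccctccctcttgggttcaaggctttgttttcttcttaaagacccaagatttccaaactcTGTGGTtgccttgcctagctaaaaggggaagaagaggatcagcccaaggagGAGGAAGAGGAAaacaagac
IL6R: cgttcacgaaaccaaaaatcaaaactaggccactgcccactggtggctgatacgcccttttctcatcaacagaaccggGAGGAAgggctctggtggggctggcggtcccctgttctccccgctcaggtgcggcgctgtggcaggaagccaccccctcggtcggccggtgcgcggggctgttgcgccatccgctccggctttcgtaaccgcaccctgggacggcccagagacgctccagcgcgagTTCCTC

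Both strands were searched for 4 motifs. The ETS core as bound by PU.1 was spelled GAGGAA, and the RUNX motif was spelled TGTGGT. The C/EBP motif was spelled TTNNGCAA, and the box near many starts was spelled TATAAA. No matches of different motifs overlapped in these windows. The FLT3 window held 1 GAGGAA match on the opposite strand, beginning 87 bases before the start, in a sequence of 72.0% G and C. The CSF1R window held 2 adjoining GAGGAA matches, 20 and 14 bases before the start, and a TGTGGT match 71 bases before it. The window of the other CSF1R start, chr5:150113366-150113615 on the minus strand and not printed, held 0 matches of the 4 motifs. The windows of KIT and IL6ST held 0 as well. CSF2RA, also uncalled between the controls, held 2 GAGGAA matches in its window. CSF3R, uncalled too, held 1 GAGGAA match before its more downstream start. The window of its other start held 1 TTNNGCAA and 1 TATAAA match. Matches thus occurred in called and uncalled members. The IL3RA window held a TTNNGCAA match on the opposite strand 240 bases before the start and TATAAA 29 bases before it, and the IL6R window held 2 GAGGAA matches, 172 and 6 bases before the start. Of 34788 RefSeq promoter windows of the same length, 23.6% hold GAGGAA, 11.0% TGTGGT, 9.05% TTNNGCAA and 10.8% TATAAA, so the first of these is a common sequence. A match describes letters only and says nothing of occupancy.

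FLT3 (ENSG00000122025, chromosome 13, 28003274 to 28100592, minus strand) was the most abundant member in MV4-11. The MV4-11 shControl libraries measured 50.3, 59.9 and 74.1 FPKM, and the MV4-11 libraries labelled shCYTH4 measured 91.4, 80.1 and 82.3 FPKM. The THP-1 shControl libraries measured 24.5, 16.0 and 20.5 FPKM, and the THP-1 shCYTH4 libraries 13.1, 10.7 and 26.1 FPKM. Every MV4-11 library was thus above every THP-1 library; within MV4-11 the hairpin groups did not overlap, and in THP-1 shCYTH4 replicates 1 and 2 lay under all controls while replicate 3 lay above all of them.

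Between the control libraries FLT3 was 3.06-fold higher in MV4-11 (61.4 ± 12 against 20.4 ± 4.21 FPKM, SD, n = 3 libraries each; fitted log2 difference 1.62, SE 0.26, edgeR adjusted p = 0.00012). In these bulk libraries, fewer expressing cells and less RNA per cell cannot be told apart. In the shCYTH4 libraries the same comparison, added after the data were seen, gave a 5.32-fold difference (log2 2.41, SE 0.26, edgeR adjusted p = 3.4e-06).

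The shCYTH4 comparison did not pass the test for FLT3 in either line. In MV4-11 the fitted log2 change was 0.39 (SE 0.25, 95% interval -0.15 to 0.93, edgeR adjusted p = 0.506), and in THP-1 it was -0.40 (SE 0.25, 95% interval -0.95 to 0.14, edgeR adjusted p = 0.482). The difference between these responses was 0.80 on the log2 scale (SE 0.36, 95% interval 0.030 to 1.56) and did not pass the test (edgeR adjusted p = 0.332). The THP-1 value rests on 1 library: without THP-1 shCYTH4 replicate 3, the library that stood apart from its group, the THP-1 change was -0.86 with an edgeR adjusted p of 0.0091, and the difference between responses was 1.26 with an adjusted p of 0.0044. Leaving it out raised edgeR calls over all 12350 genes from 204 to 835 in THP-1. For the difference between responses they rose from 107 to 913, so the shift was not particular to FLT3. Over all 20 alternatives the adjusted p of the THP-1 change ran from 0.0091 to 0.864, and that omission was the only one with a call.

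KIT (ENSG00000157404, chromosome 4, 54657267 to 54740783, plus strand), the receptor for stem cell factor, was close to the detection filter throughout. It measured 0.724, 1.03 and 1.17 FPKM in MV4-11 shControl, and 0.985, 0.951 and 1.05 FPKM in the MV4-11 libraries labelled shCYTH4. The THP-1 libraries measured 0.936, 0.528 and 0.316 FPKM with shControl and 0.294, 0.335 and 0.777 FPKM with shCYTH4. The hairpin groups overlapped in both lines, and so did the lines' control groups. The fitted log2 difference between lines was 0.74 in the controls (SE 0.37, edgeR adjusted p = 0.113) and 0.80 in the fit without the filter on low values (edgeR adjusted p = 0.125). The control difference was called with quantile normalization (1.11, edgeR adjusted p = 0.0256) and when THP-1 shControl replicate 1 (1.17, edgeR adjusted p = 0.0214) or THP-1 shCYTH4 replicate 3 (0.73, edgeR adjusted p = 0.0425) was left out. In the shCYTH4 libraries it was 1.15 (SE 0.37, edgeR adjusted p = 0.019). As KIT was tested only through the line where it is higher, these calls do not support a difference. The hairpin changes were -0.037 (SE 0.37) in MV4-11 and -0.45 (SE 0.37) in THP-1, with edgeR adjusted p-values of 0.973 and 0.618.

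CSF1R (ENSG00000182578, chromosome 5, 150053291 to 150113372, minus strand) binds M-CSF and interleukin-34 and marks monocytes and macrophages. The MV4-11 shControl libraries measured 20.8, 18.3 and 17.2 FPKM, and the MV4-11 libraries labelled shCYTH4 12.2, 20.3 and 23.3 FPKM. In THP-1 the controls measured 41.1, 46.6 and 37.0 FPKM and the shCYTH4 libraries 41.4, 47.4 and 29.3 FPKM. All THP-1 libraries exceeded all MV4-11 libraries, and the hairpin groups overlapped in both lines. CSF1R was 2.18-fold lower in MV4-11 controls than in THP-1 controls (18.8 ± 1.85 against 41.6 ± 4.81 FPKM, SD, n = 3 each; log2 -1.13, SE 0.23, edgeR adjusted p = 0.00091). The hairpin changes were -0.089 (SE 0.23) in MV4-11 and -0.19 (SE 0.23) in THP-1 on the log2 scale, with edgeR adjusted p-values of 0.899 and 0.765. The 2 libraries that stood apart, MV4-11 shCYTH4 replicate 1 and THP-1 shCYTH4 replicate 3, held the lowest CSF1R value of their group, and without them the respective changes were 0.15 and 0.0022, both uncalled. RPL7P1, a ribosomal protein pseudogene with a mean of 231 FPKM, lies inside CSF1R on the other strand, and the use of strand in the authors' counting is not given, so the CSF1R level is uncertain.

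The alpha chain IL3RA (ENSG00000185291, chromosome X, 1336785 to 1382689, plus strand), also known as CD123, had the second highest mean FPKM in MV4-11. It measured 28.6, 27.9 and 31.3 FPKM in MV4-11 shControl and 47.7, 44.9 and 42.7 FPKM in the MV4-11 libraries labelled shCYTH4. In THP-1 it measured 14.4, 14.0 and 8.68 FPKM with shControl and 11.9, 12.4 and 13.2 FPKM with shCYTH4. The MV4-11 hairpin groups were well separated, whereas the THP-1 shCYTH4 values lay inside the range of their controls. IL3RA was 2.40-fold higher in MV4-11 than in THP-1 among controls (log2 1.26, SE 0.17, edgeR adjusted p = 1.6e-05) and 3.76-fold higher among shCYTH4 libraries (log2 1.91, SE 0.18, edgeR adjusted p = 2.1e-07).

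Of all members, IL3RA had the smallest p in the MV4-11 hairpin comparison. Its mean went from 29.3 ± 1.78 to 45.1 ± 2.53 FPKM (SD, n = 3 each), a fitted log2 change of 0.55 (SE 0.17, 95% interval 0.19 to 0.91) that did not pass the test over all genes (edgeR adjusted p = 0.146). The adjusted p stayed between 0.051 and 0.405 over 20 alternatives. Without MV4-11 shCYTH4 replicate 1, which stood apart from its group, the change was 0.52 (SE 0.19, edgeR adjusted p = 0.256). In THP-1 the change was -0.10 (SE 0.17, edgeR adjusted p = 0.847), and the difference between responses was 0.65 (SE 0.24, 95% interval 0.14 to 1.16, edgeR adjusted p = 0.226).

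CSF2RA (ENSG00000198223, chromosome X, 1268800 to 1310381, plus strand) measured 7.36, 7.28 and 7.55 FPKM in MV4-11 shControl and 8.66, 11.5 and 10.1 FPKM in the MV4-11 libraries labelled shCYTH4. In THP-1 it measured 6.36, 6.71 and 6.17 FPKM with shControl and 7.06, 7.27 and 9.41 FPKM with shCYTH4. In FPKM, without the library factors of the test, the shCYTH4 values were above all controls of the same line in both lines. Neither change passed the test. The fitted log2 change was 0.37 in MV4-11 (SE 0.15, edgeR adjusted p = 0.292) and 0.18 in THP-1 (SE 0.15, edgeR adjusted p = 0.619). CSF2RA did not pass the test between the lines' controls (log2 0.22, SE 0.15, 95% interval -0.10 to 0.55, edgeR adjusted p = 0.239). It and IL3RA lie in the pseudoautosomal region, which the X and Y chromosomes share, and how the authors' counting treated the copies is not stated.

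The shared beta chain CSF2RB (ENSG00000100368, chromosome 22, 36913628 to 36940439, plus strand) measured 9.03, 9.62 and 10.3 FPKM in MV4-11 shControl and 7.09, 9.72 and 10.3 FPKM in the MV4-11 libraries labelled shCYTH4. In THP-1 it measured 6.44, 5.24 and 6.03 FPKM with shControl and 6.59, 6.47 and 6.96 FPKM with shCYTH4. The MV4-11 hairpin groups overlapped, and the THP-1 shCYTH4 values lay just above their controls in FPKM, which lacks the library factors of the test. CSF2RB was 1.66-fold higher in MV4-11 controls than in THP-1 controls (log2 0.73, SE 0.15, edgeR adjusted p = 0.00076). The hairpin changes were -0.17 (SE 0.15) in MV4-11 and 0.067 (SE 0.15) in THP-1, with edgeR adjusted p-values of 0.649 and 0.892. A pseudogene of CSF2RB lies near it, and how reads shared by the copies were counted is not given, so its level is uncertain.

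Because the alpha chains share CSF2RB, their levels were also set against it. The ratio of IL3RA to CSF2RB FPKM was 3.17, 2.90 and 3.04 in MV4-11 shControl, 6.73, 4.62 and 4.16 in the MV4-11 libraries labelled shCYTH4, 2.24, 2.67 and 1.44 in THP-1 shControl and 1.80, 1.91 and 1.89 in THP-1 shCYTH4. The MV4-11 ratios did not overlap between hairpins, and the lines' control ratios did not overlap either (two-sided exact permutation p = 0.1 for each, the smallest that 3 against 3 libraries allow, 0.188 after Benjamini-Hochberg adjustment over 32 such tests). The ratio of CSF2RA to CSF2RB was 0.769 ± 0.0416 in MV4-11 shControl and 1.10 ± 0.160 in THP-1 shControl, and 1.13 ± 0.128 and 1.18 ± 0.149 in the shCYTH4 libraries of MV4-11 and THP-1 (SD, n = 3 libraries each). GM-CSF and interleukin-3 receptors draw on 1 pool of beta chain, but transcript ratios do not measure receptor on the surface.

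CSF3R (ENSG00000119535, chromosome 1, 36466043 to 36483278, minus strand), the G-CSF receptor of the neutrophil lineage, had a narrow range. It measured 10.4, 8.10 and 10.2 FPKM in MV4-11 shControl and 7.92, 11.1 and 12.1 FPKM in the MV4-11 libraries labelled shCYTH4. In THP-1 it measured 13.9, 15.1 and 10.4 FPKM with shControl and 9.74, 9.15 and 12.6 FPKM with shCYTH4. The hairpin groups overlapped in both lines, and the lines' controls were narrowly apart. The difference between the lines' controls was -0.44 on the log2 scale (SE 0.19, 95% interval -0.85 to -0.026, edgeR adjusted p = 0.071). It was called when THP-1 shControl replicate 3 (-0.58, edgeR adjusted p = 0.030) or MV4-11 shCYTH4 replicate 1 (-0.44, edgeR adjusted p = 0.0404) was left out, and with quantile normalization (-0.47, edgeR adjusted p = 0.0455) or fewer libraries in the fit (-0.43, edgeR adjusted p = 0.0455). In THP-1 the hairpin change was -0.45 (SE 0.19, edgeR adjusted p = 0.270), and in MV4-11 it was 0.042 (SE 0.19, edgeR adjusted p = 0.941).

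IL6R (ENSG00000160712, chromosome 1, 154405193 to 154466877, plus strand) was the most abundant member in THP-1. The THP-1 libraries measured 91.1, 78.2 and 77.4 FPKM with shControl and 70.7, 70.6 and 81.2 FPKM with shCYTH4. In MV4-11 it measured 17.0, 19.5 and 18.4 FPKM with shControl and 17.2, 18.6 and 18.4 FPKM in the libraries labelled shCYTH4. The lines were wide apart, and the hairpin groups overlapped in both. IL6R was 4.42-fold lower in MV4-11 controls than in THP-1 controls (18.3 ± 1.23 against 82.2 ± 7.69 FPKM, SD, n = 3 each; log2 -2.14, SE 0.12, edgeR adjusted p = 7.9e-10), the largest difference between lines among the members tested. The hairpin change was -0.094 in MV4-11 (SE 0.12, edgeR adjusted p = 0.756) and -0.26 in THP-1 (SE 0.12, edgeR adjusted p = 0.279). The antisense gene IL6R-AS1, with a mean of 0.589 FPKM, overlaps the start of IL6R on the other strand.

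IL6ST (ENSG00000134352, chromosome 5, 55935095 to 55995022, minus strand) encodes gp130, the signal-passing chain for interleukin-6, oncostatin M, LIF and interleukin-11. It measured 0.154, 0.323 and 0.375 FPKM in MV4-11 shControl and 0.340, 0.352 and 0.259 FPKM in the MV4-11 libraries labelled shCYTH4. In THP-1 it measured 0.856, 0.539 and 0.681 FPKM with shControl and 0.940, 1.15 and 1.35 FPKM with shCYTH4. All THP-1 libraries were above all MV4-11 libraries, and the THP-1 shCYTH4 values were above their controls. In a fit without the filter on low values the control libraries of MV4-11 were 2.30-fold lower than those of THP-1 (log2 -1.20, SE 0.26, edgeR adjusted p = 0.0014). The same fit gave a THP-1 hairpin change of 0.64 (SE 0.26, edgeR adjusted p = 0.396) and a MV4-11 change of 0.10 (SE 0.26, edgeR adjusted p = 1.0). An unnamed small gene (ENSG00000264281, 55944656 to 55944733) with a mean of 7.66 FPKM lies within IL6ST on the other strand, and IL6ST has a pseudogene elsewhere in the genome, so these low levels are uncertain.

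IL6R exceeded IL6ST in FPKM, a scale per transcript length, in every library. The ratio of IL6R to IL6ST was 110.4, 60.3 and 49.2 in MV4-11 shControl and 50.7, 52.8 and 71.2 in the MV4-11 libraries labelled shCYTH4. In THP-1 it was 106.4, 145.1 and 113.6 with shControl and 75.2, 61.3 and 60.1 with shCYTH4. The THP-1 hairpin groups did not overlap in this ratio (121.7 ± 20.6 against 65.5 ± 8.40, SD, n = 3 libraries each; two-sided exact permutation p = 0.1, the smallest possible, adjusted p = 0.188), and those of MV4-11 did (exact permutation p = 0.7).

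Across the members, the order of FPKM levels differed between the lines. This order and the shares below rest on the transcript lengths used for FPKM, which were not examined here. In estimated counts, not scaled to length, CSF3R (8420, 6462 and 8799) exceeded IL3RA (3739, 3590 and 4347) in MV4-11 controls. In FPKM the order in MV4-11 controls ran FLT3, IL3RA, CSF1R, IL6R, CSF2RB, CSF3R, CSF2RA, KIT and IL6ST. CSF1R and IL6R overlapped, as did CSF2RB and CSF3R, while all other neighbours were apart in FPKM. In THP-1 controls the order was IL6R, CSF1R, FLT3, CSF3R, IL3RA, CSF2RA, CSF2RB, IL6ST and KIT, with overlap between CSF3R and IL3RA, between CSF2RA and CSF2RB and between IL6ST and KIT. FLT3 made up 39.2% ± 4.32 of the summed FPKM of the 9 genes in MV4-11 controls and 11.1% ± 2.02 in THP-1 controls, and IL6R made up 11.8% ± 1.01 and 44.9% ± 1.87 (SD, n = 3 each; exact permutation p = 0.1, the smallest possible, for both). The FLT3 to CSF1R ratio was 2.42, 3.27 and 4.31 in MV4-11 controls and 0.595, 0.344 and 0.555 in THP-1 controls, groups that did not overlap. In FPKM the lines' control groups were apart for 7 of the 8 tested members, against 60.6% of all genes tested, and for IL6ST as well. CSF3R is among these 7 only narrowly. Its highest MV4-11 control was 10.41 FPKM and its lowest THP-1 control 10.44 FPKM, without the library factors of the test.

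**Figure D2:**
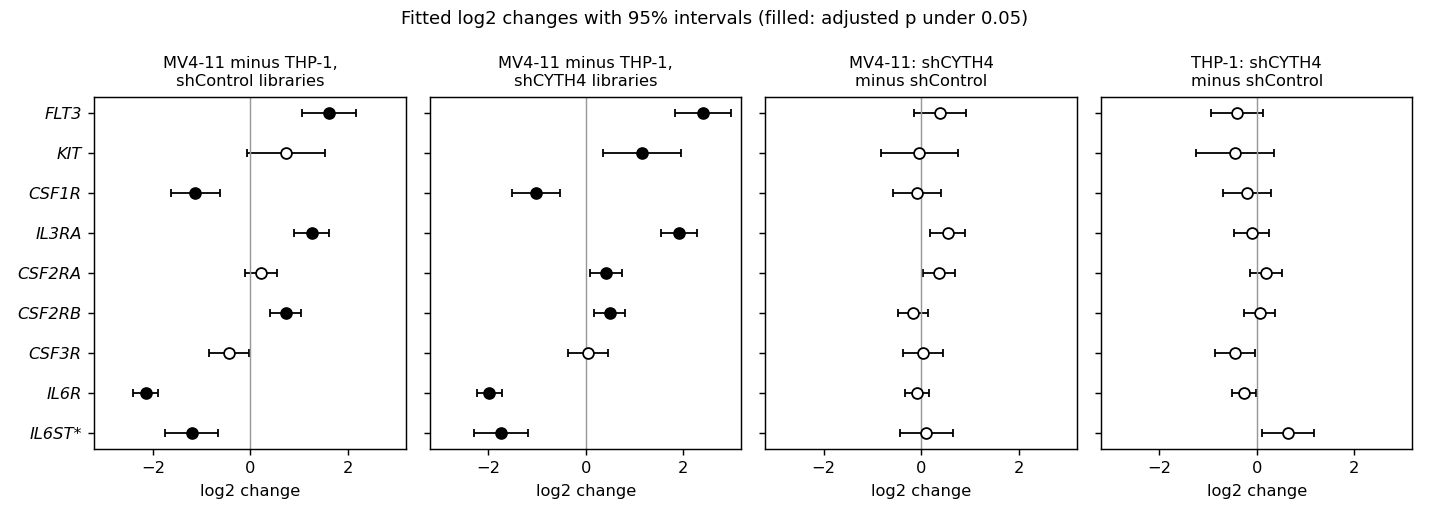
Fitted log2 changes of the members with 95% intervals, for MV4-11 minus THP-1 in the shControl and in the shCYTH4 libraries and for shCYTH4 minus shControl in each line; filled points have an adjusted p under 0.05, and IL6ST (asterisk) comes from the fit without the filter on low values. The line differences reach 2.41 upwards for FLT3 and -2.14 downwards for IL6R, and no hairpin change is filled.

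The line differences of the 5 called members kept their direction and their call in all 21 alternatives, which include the shCYTH4 libraries in place of the controls. In the shCYTH4 libraries 7 of the 8 tested members were called between the lines, 5 higher and 2 lower in MV4-11, beside 52.2% of all genes tested, 25.6% higher and 26.6% lower. KIT and CSF2RA (log2 0.41, SE 0.15, edgeR adjusted p = 0.0343) were the additions. Without KIT, 6 of 7 were called, 4 higher and 2 lower, beside 46.7% of the genes that reached an FPKM of 1 in both lines, 25.1% higher and 21.6% lower. CSF3R, at 0.051 (SE 0.19, edgeR adjusted p = 0.845), remained uncalled.

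Within the lines, shCYTH4 gave no called member. In MV4-11, 0 of the 8 tested members were called by edgeR, beside 1.13% of all genes, 2 had an unadjusted p under 0.05 (IL3RA and CSF2RA, beside 13.9% of all genes), and DESeq2 and limma called 0 as well. FLT3, IL3RA and CSF2RA had all 3 shCYTH4 libraries above all 3 controls, 3 of the 8 tested members beside 16.0% of all genes apart in that direction and 24.8% apart in either. In THP-1, 0 of 8 were called by edgeR, beside 1.65% of all genes, 2 had an unadjusted p under 0.05 (CSF3R and IL6R, beside 16.0% of all genes), and DESeq2 and limma called 0. CSF2RA and CSF2RB were the 2 of 8 tested members with all shCYTH4 libraries above all controls, beside 17.1% of all genes in that direction and 23.7% in either, and IL6ST, not tested, was apart in the same way. These separations are in FPKM, without the library factors of the test. Over all genes tested, the median THP-1 change was 0.098 by limma on log2(FPKM + 0.1) and -0.0087 by edgeR. In MV4-11 these medians were 0.072 and 0.00075. The part of this shift in the separations was not tested. The difference between the responses was called by edgeR for 0 of 8, beside 0.866% of all genes, with 2 at an unadjusted p under 0.05 (FLT3 and IL3RA, beside 14.2% of all genes) and 0 by DESeq2 and limma. An uncalled change does not show that levels were equal: the 95% intervals in MV4-11 ran up to 0.93 for FLT3 and 0.91 for IL3RA on the log2 scale.

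**Figure D3:**
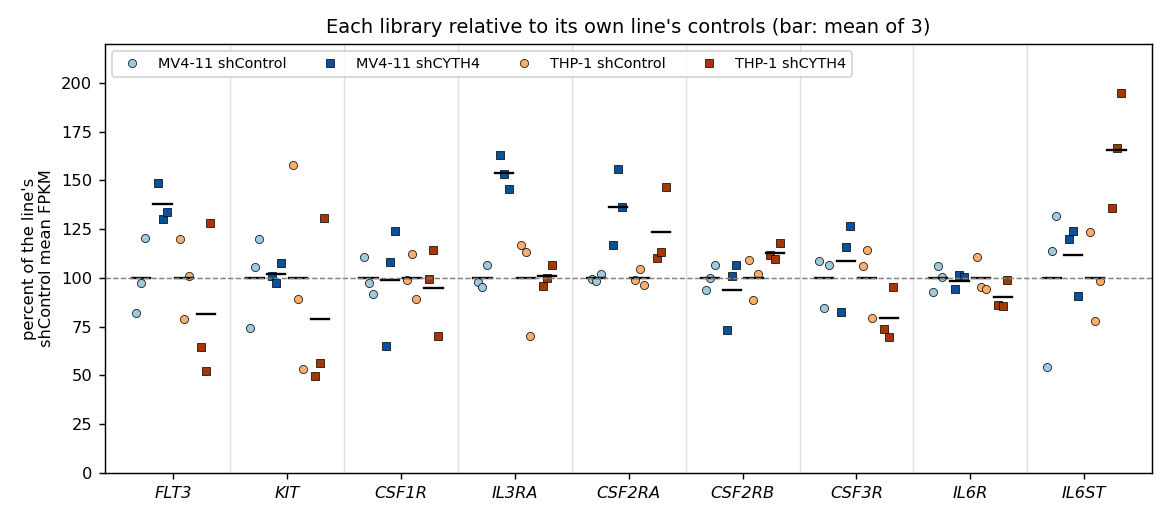
Each library's FPKM as a percentage of its own line's shControl mean, with 1 point per library and bars for the mean of 3. IL3RA stands at 146% to 163% in the MV4-11 libraries labelled shCYTH4 and at 95.9% to 106% in THP-1, and FLT3 in THP-1 shCYTH4 splits into 64.5%, 52.4% and 128%.

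Other genes of the pathway came from 6 lists of ligands, related receptors, proximal signalling, negative regulators, sheddases and STAT targets. Of 12 ligands 8 had a row, and only 2 of those 8 passed the filter. CSF2, CSF3, IL3 and IL6 were not analysed here. FLT3LG, the ligand of FLT3, was at 1.10 ± 0.144 FPKM in MV4-11 shControl, 1.46 ± 0.178 FPKM with the shCYTH4 label, 1.02 ± 0.104 FPKM in THP-1 shControl and 1.43 ± 0.209 FPKM in THP-1 shCYTH4 (SD, n = 3), and was called in no comparison. OSM, oncostatin M, a ligand that signals through IL6ST, was higher in MV4-11 controls (3.15 ± 0.419 against 1.62 ± 0.373 FPKM, SD, n = 3; log2 0.97, SE 0.35, edgeR adjusted p = 0.0297). The OSM call was lost without MV4-11 shControl replicate 1 or 2 or THP-1 shControl replicate 1 or 3, with edgeR adjusted p-values of up to 0.108. Of 8 related receptors 2 were tested. EPOR, the erythropoietin receptor, was higher in MV4-11 (6.16 against 3.19 FPKM; log2 0.98, SE 0.18, edgeR adjusted p = 0.00031). IL11RA, the interleukin-11 receptor, passed the filter through THP-1 alone, so its value comes from the fit without the filter, in which 24.0% of 34626 genes were called between the controls; it was lower in MV4-11 (0.246 against 1.00 FPKM; log2 -1.87, edgeR adjusted p = 4.8e-05).

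Among proximal signalling genes, 7 of 13 tested were called between the control libraries, 1 higher and 6 lower in MV4-11, beside 51.4% of all genes tested, 24.6% higher and 26.7% lower. The number called is thus near the background; the median log2 difference was -0.25 beside -0.0067 over all genes tested. STAT3, the main STAT of interleukin-6 signalling, was at 6.46 ± 0.533 FPKM in MV4-11 and 14.0 ± 1.36 FPKM in THP-1 (SD, n = 3; log2 -1.09, SE 0.14, edgeR adjusted p = 8.9e-06). JAK2, the kinase bound to CSF2RB, was at 1.17 ± 0.299 and 3.53 ± 0.700 FPKM (log2 -1.57, SE 0.22, edgeR adjusted p = 2.3e-05). NRAS, a RAS GTPase downstream of these receptors, was lower as well, with a log2 difference of -0.97 (SE 0.16, edgeR adjusted p = 0.0001). The 1 higher gene, chosen after its values were seen, was STAT5A, a STAT used by FLT3 with the duplication and by the beta chain (7.83 ± 0.835 against 4.54 ± 0.851 FPKM; log2 0.80, SE 0.17, edgeR adjusted p = 0.0011). Between the shCYTH4 libraries the STAT5A difference was 0.22 (edgeR adjusted p = 0.292). STAT5B, on the same list, was at 6.01 ± 0.189 FPKM in MV4-11 controls and 5.95 ± 0.0640 FPKM in THP-1 controls (log2 0.038, SE 0.14, edgeR adjusted p = 0.835).

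Among negative regulators, 10 were tested, of which 9 reached an FPKM of 1 in both lines. Of these 9, 8 were called between the control libraries, 5 higher and 3 lower in MV4-11, beside 46.1% of all such genes, 24.2% higher and 21.9% lower, with a median log2 difference of 0.45 beside 0.029. The other gene was SOCS2, which passed the filter through MV4-11 alone and is given from the fit without the filter. SOCS2 and CISH are cytokine feedback inhibitors whose genes are STAT5 targets. SOCS2 was at 4.32, 4.98 and 4.80 FPKM in MV4-11 controls and 0.643, 0.433 and 0.561 FPKM in THP-1 controls (log2 3.19, edgeR adjusted p = 9.2e-11). CISH was at 11.6, 8.87 and 10.04 FPKM in MV4-11 controls and 1.41, 2.01 and 2.47 FPKM in THP-1 controls (log2 2.39, SE 0.24, edgeR adjusted p = 4.9e-07). Neither pair of groups overlapped. PTPN6, the SHP-1 phosphatase, was at 144 and 53.9 FPKM on average (log2 1.44, SE 0.15, edgeR adjusted p = 6.6e-07), and SLA, an adaptor that dampens receptor kinases, at 7.22 ± 0.924 and 3.52 ± 0.483 FPKM (log2 1.06, SE 0.17, edgeR adjusted p = 7.0e-05).

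Of the STAT5 and STAT3 target genes, 10 were tested, of which 8 reached an FPKM of 1 in both lines. Of these 8, 5 were called between the control libraries, 4 higher and 1 lower in MV4-11, beside the same 46.1% of genes, 24.2% higher and 21.9% lower, with a median log2 difference of 0.41 beside 0.029. The 1 called lower was MCL1, at 27.7 ± 5.56 FPKM in MV4-11 controls and 54.7 ± 10.5 FPKM in THP-1 controls (log2 -0.96, SE 0.15, edgeR adjusted p = 6.6e-05). Of these 8, PIM3, BCL2L1 and ID1 were uncalled. CCND2 and BCL6, outside these 8, each passed the filter through 1 line alone and are given from the fit without the filter. PIM1, a serine kinase gene induced by STAT5, was at 71.4, 61.7 and 68.3 FPKM in MV4-11 controls and 3.61, 3.81 and 5.18 FPKM in THP-1 controls (log2 4.02, SE 0.20, edgeR adjusted p = 2.0e-10). CCND2, the gene of cyclin D2, was at 4.75 ± 0.777 FPKM in MV4-11 controls and 0.0742 ± 0.0178 FPKM in THP-1 controls (log2 6.06, edgeR adjusted p = 1.5e-06). PIM2, a related kinase, was at 15.4 ± 1.40 and 7.85 ± 0.305 FPKM (log2 1.00, SE 0.15, edgeR adjusted p = 4.1e-05). BCL6, a repressor that STAT5 lowers in other blood cells, was the other way round at 0.272 ± 0.0177 and 1.24 ± 0.166 FPKM (log2 -2.08, edgeR adjusted p = 6.5e-07). ADAM17 and ADAM10, proteases that shed receptors such as IL6R and CSF1R from the surface, were the 2 of 3 sheddase genes tested that were called, both lower in MV4-11 controls (log2 -0.83, SE 0.16, and -0.80, SE 0.23; edgeR adjusted p = 0.00032 and 0.0085). All 3 reached an FPKM of 1 in both lines. Of such genes 46.1% were called, 21.9% as lower, so 2 of 3 is not a result about sheddases. The part that the FLT3 duplication has in any of these line differences was not tested, since duplication and line cannot be told apart.

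**Figure D4:**
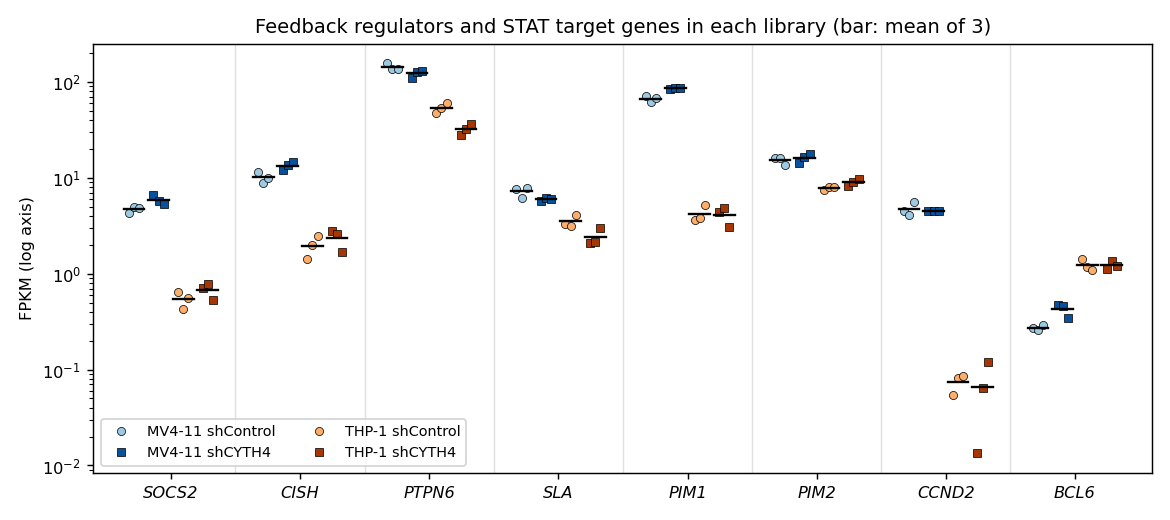
FPKM on a log axis of the 4 negative regulators and 4 STAT target genes with the smallest adjusted p of their list in the line comparison, with 1 point per library and bars for the mean of 3. SLA2, PTPRJ, CBL and MCL1, called lower in MV4-11 controls, are not drawn. SOCS2, CISH, PIM1 and CCND2 stand apart between MV4-11 (blue) and THP-1 (orange) in all libraries, and BCL6 is higher in THP-1.

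With shCYTH4, the pathway lists held 1 called gene. In MV4-11 the edgeR test called 0 members of every list, beside 1.13% of all genes tested. The difference between responses was likewise called for 0, beside 0.866%. In THP-1 the test called 1.65% of all genes and 1 of the 10 tested negative regulators, so 1 call over these lists is not a result about the pathway. In THP-1 PTPN6 fell from 48.1, 53.7 and 59.9 FPKM in the controls to 27.8, 32.3 and 36.5 FPKM with shCYTH4 (log2 -0.86, SE 0.14, edgeR adjusted p = 0.0125). Its groups did not overlap. The call held in 16 of 20 alternatives and was lost without THP-1 shControl replicate 2 or 3 or THP-1 shCYTH4 replicate 1 or 2 (edgeR adjusted p up to 0.0862). In MV4-11 PTPN6 had a log2 change of -0.30 (SE 0.14, edgeR adjusted p = 0.362).

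Genes most like each tested member were ranked by Pearson's r of log2(FPKM + 1) over the 12 libraries after the mean of each line was removed, among 8892 genes. FLT3 was followed most closely by CDKN1B (r = 0.983, rho = 0.986), a cyclin-dependent kinase inhibitor, and BCL2 (r = 0.981, rho = 0.979), an inhibitor of apoptosis. CSF2RB was closest to ASXL2 (r = 0.984) and HERC1 (r = 0.982). CSF1R was closest to P2RY8 (r = 0.943) and TRIOBP (0.929), CSF3R to OGG1 (0.941) and STK10 (0.919), and CSF2RA to R3HDM2 (0.923) and ULK1 (0.921). KIT was closest to GPR18 (0.920) and MBTD1 (0.916), IL3RA to IGBP1 (0.908) and CYREN (0.904), and IL6R to FLI1 (0.904) and AFF1 (0.901). These are descriptions of 12 libraries that share depth and library-wide shifts, chosen as the highest of many, and they carry no test.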

How the data were processed

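The deposited table holds 24 value columns for 12 libraries and 34626 genes: the authors' FPKM per gene and library, and the authors' estimated counts, whole numbers not normalized, per the file headers. Of the counts from 1 to 40, 31.2% were multiples of 4, more than an even spread gives, so a count may not stand for a single fragment. Column names use SC and Sh, read here as shControl and shCYTH4. Libraries were strand-marked and read from both ends at 150 bases, per the labels' protocols; fastp, StringTie and edgeR were used, per the submitters' processing notes. No source used here names the aligner, genome build, annotation release or use of strand (not given in the sources), and positions are those of the file.

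The 12350 genes that reached an FPKM of 1 in 3 or more libraries entered the quasi-likelihood test of edgeR 4.0.16 in R 4.3.3 (robust, TMM scaling, 4 group means, 8 residual degrees of freedom), with Benjamini-Hochberg adjustment over all of them and a threshold of 0.05. SE and 95% intervals are those of fitted log2 changes. The code was tested on simulated data. Alternatives were DESeq2 1.42.0, limma 3.58.1 on log2(FPKM + 1) and log2(FPKM + 0.1), quantile normalization, no filter, counts divided by 4, fewer libraries in the fit, a replicate block and leaving out each library; the line comparison in shCYTH4 libraries and the counts over genes with an FPKM of 1 in both lines were added after the data were seen. Single ratios were tested by exact permutation, two-sided, with 0.1 the smallest p possible. No FPKM column lacked a sample (0 others). Promoter windows come from RefSeq on GRCh38.p14.

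The members and lists were chosen with earlier results of these data known. All members were named, with up to 4 called genes per list and comparison by adjusted p (1 of them is not reported here), ligands with a mean FPKM of at least 1, and 2 genes most like each tested member among genes with a mean FPKM of at least 2.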

Additional observations from a re-analysis of the deposited data

How the results depend on the processing

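Members called were 0 in MV4-11 when any 1 library was left out (0 to 0), 0 to 1 in THP-1, 0 to 1 for the difference between responses and 5 to 6 between the lines' controls; the added call in THP-1 and in the difference was FLT3 without THP-1 shCYTH4 replicate 3. That omission also gave the most calls over all genes, 835 in THP-1 and 913 for the difference. Between the lines, 7 of 8 were called with quantile normalization (54.0% of all genes), 6 of 8 with fewer libraries in the fit (52.7%), 6 of 9 without the filter (24.0%) and 7 of 8 with the shCYTH4 libraries (52.2%). CSF3R and KIT each gained a line call in 4 of 21 alternatives, with log2 differences from -0.58 to 0.051 and from 0.32 to 1.17, and the uncalled THP-1 change of KIT ran from -0.99 to -0.013.

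Over all genes, calls in MV4-11 were 139, with 451 by DESeq2 and 74 to 398 when leaving out 1 library. In THP-1 they were 204, with 611 by DESeq2, 477 by limma on log2(FPKM + 1), 78 with fewer libraries in the fit and 15 to 835 when leaving out 1 library. For the difference between responses they were 107, with 441 by DESeq2, 162 by limma on log2(FPKM + 1), 162 without the filter and 32 to 913 when leaving out 1 library. Between the lines they were 6347 and ran from 5398 to 6709. The cause of these shifts was not tested.

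Some log2 values reversed; of these, only the line difference of CYTH4 was called. In MV4-11, KIT was 0.021 with limma on log2(FPKM + 1) and 0.049 on log2(FPKM + 0.1), and IL6R was 2.9e-04 with quantile normalization. In THP-1, IL3RA was 0.041 and 0.047 with those limma fits. With the shCYTH4 libraries the line difference of CSF3R was 0.051 (-0.44 in the controls) and that of CYTH4 0.39 (-0.50, edgeR adjusted p = 0.0332, in the controls). When leaving out 1 library, MV4-11 changes ran from -0.091 to 0.16 for CYTH4, -0.19 to 0.10 for KIT, -0.27 to 0.15 for CSF1R and -0.076 to 0.21 for CSF3R. THP-1 changes ran from -0.35 to 0.0022 for CSF1R and -0.31 to 0.036 for IL3RA, and differences between responses from -0.093 to 0.34 for CSF1R and -0.024 to 0.96 for KIT.

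No pairing by replicate number was seen: same-numbered libraries of a line correlated at -0.214 to 0.0945 in their deviations from group means. Differently numbered ones correlated at -0.217 to 0.289. With 3 libraries per group, these values cannot show whether same-numbered libraries were prepared together. The fit with the replicate number as a block called 116 genes in MV4-11, 70 in THP-1, 75 for the difference and 6115 between lines, with 0, 0, 0 and 5 members. KIT rested on 250 to 1077 estimated counts per library and IL6ST on 143 to 1238, against 3439 to 29337 for FLT3.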
